A study of Mus musculus with 6 samples.

Results

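Genes of glucose uptake, glycolysis, lactate and pyruvate handling, glycogen metabolism and insulin reception were followed in hearts of Cenpf knockout and wild-type mice. The set was named gene by gene from textbook pathways, with earlier results of these data known. It had 40 members, and 35 of them were measured, out of 19938 genes named on the array. A member was taken as measured where a probe carried its symbol and no other, and where there were several such probes the one with the highest mean over the 6 arrays was used. Gapdh was named only on probes that also named other genes, 25 in number, so it has no value here, and Gpi1, Pfkfb1, Eno1 and Mpc2 were not analysed here.

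The samples were heart RNA from 3 wild-type mice and 3 mice labelled cenpf knock-out, all 12 months old and untreated, and each heart was hybridised to an Affymetrix mouse gene array of its own. The product of Cenpf, centromere protein F, binds kinetochores and microtubules. The labels do not give the strain, the sex, the deleted part of Cenpf, or whether the deletion was limited to a cell type. The replicates are labelled biological, and with 3 hearts a group their number sets the precision.

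Cenpf itself, the targeted gene, read 8.75, 8.54 and 8.04 in the wild-type and 6.35, 6.10 and 6.68 in the knockout hearts, a difference of -2.07 (SE 0.21, adjusted p = 0.0286 by limma). It was lower in each knockout heart than in any wild-type heart, and whether its 1 probe lies in the deleted part is not known. Of all named probes, 71.2% lay above a background level of 6.35 (log2), set at the 95th percentile of 1205 olfactory and vomeronasal receptor probes, and all 35 members did.

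Glucose enters heart muscle cells through facilitative transporters, chiefly an insulin-responsive one that moves from internal stores to the cell surface. Inside the cell it is phosphorylated by hexokinase and then either stored as glycogen or split by glycolysis to pyruvate, which is burned in mitochondria or exchanged with lactate. The adult heart prefers fatty acids as fuel, and the fetal or overloaded heart is known to rely more on glucose. Many glycolytic genes are also known targets of hypoxia-inducible factor, which can bind the letters ACGTG, and of proteins that bind the E-box CACGTG. Other forms of the core bound by hypoxia-inducible factor were not searched for here.

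The promoters of the 4 members with the smallest p-values are shown because both motifs can be looked for in the letters themselves. None of these members passed the test described below. Each is the 250 bases upstream of a start site in RefSeq (GRCm38.p6), 5′ to 3′ on the strand of the gene, and capitals mark ACGTG or its reverse complement CACGT, which together include every CACGTG.
Pfkfb2 (chr1:130715822-130716071, minus strand): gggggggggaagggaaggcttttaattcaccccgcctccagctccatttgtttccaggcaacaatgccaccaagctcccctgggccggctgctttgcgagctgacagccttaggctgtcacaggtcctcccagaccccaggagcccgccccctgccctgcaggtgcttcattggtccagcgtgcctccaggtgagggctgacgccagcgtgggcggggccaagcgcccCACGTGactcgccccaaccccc
Ugp2 (chr11:21371268-21371517, minus strand): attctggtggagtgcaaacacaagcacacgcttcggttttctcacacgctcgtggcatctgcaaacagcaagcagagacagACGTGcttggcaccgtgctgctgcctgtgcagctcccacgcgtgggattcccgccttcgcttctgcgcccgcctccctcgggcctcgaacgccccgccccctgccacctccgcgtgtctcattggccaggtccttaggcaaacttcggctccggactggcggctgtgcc
Slc2a12 (chr10:22644761-22645010, plus strand): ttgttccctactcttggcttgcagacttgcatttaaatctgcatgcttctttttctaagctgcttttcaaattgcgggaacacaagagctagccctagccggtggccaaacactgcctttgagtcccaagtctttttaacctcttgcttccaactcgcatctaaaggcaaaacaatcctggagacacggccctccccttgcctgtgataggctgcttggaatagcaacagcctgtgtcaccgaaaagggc
Pfkp (chr13:6648772-6649021, minus strand): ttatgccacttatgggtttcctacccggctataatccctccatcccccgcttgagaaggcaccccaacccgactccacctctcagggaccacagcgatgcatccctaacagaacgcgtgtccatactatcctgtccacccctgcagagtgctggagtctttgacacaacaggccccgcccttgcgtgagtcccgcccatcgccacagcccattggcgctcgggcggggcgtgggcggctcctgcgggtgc
The Pfkfb2 window, 1 of 3 listed for the gene, held a whole E-box that begins 22 bases before the start. The Ugp2 window, 1 of 2 listed, held 1 ACGTG that begins 169 bases before the start, and these letters were not in the Slc2a12 and Pfkp windows. RefSeq promoters were found for 32 of the 35 measured members, in 46 windows, and Slc2a4, Slc2a3 and Insr are the other 3. ACGTG on either strand lay in 47.83% of those windows and in 16.57% of all 32851 windows of the same length. CACGTG, which overlaps ACGTG, lay in 15.22% against 6.02%. The genes with CACGTG were Irs1, Irs2, Pfkfb2, Pfkfb3, Pfkm, Slc16a1 and Ldha. The GC box GGGCGG lay in 52.17% against 32.74%, and GTAAACA, the letters bound by FOXO factors, in 2.17% against 3.17%, both counted on either strand. The member windows were richer in G and C, with a mean of 60.3% against 53.2% over all windows, and the part of base composition in these shares was not tested.

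None of the 35 members passed the test between knockout and wild-type hearts. The test was limma on log2 values with Benjamini-Hochberg adjustment over all 21789 named probes, and the adjusted p of the members ran from 0.455 to 0.989. A probe is called at an adjusted p under 0.05, and 0.0275% of all named probes were. At an unadjusted p under 0.05, 2 members differed, Pfkfb2 and Ugp2, which is 5.71% of the 35 against 9.9% of all named probes. Both were higher in knockout hearts, where 4.66% of all probes were higher and 5.24% lower by that rule. The wild-type and knockout values did not overlap for 1 member, Slc2a3, against 14.8% of all named probes. Both shares of the members lay below those of the whole array.

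The differences were small. Over the 35 members the median difference, knockout minus wild-type, was 0.065 on the log2 scale, beside -0.006 over all named genes, with 23 members higher and 12 lower, or 27 and 8 after quantile normalization. The standard errors had a median of 0.12 (log2). For 29 of the 35 members the 95% interval of the difference, taken from limma gene by gene and without adjustment, lay inside a 1.5-fold change in either direction, and for 33 inside a 2-fold change. The 1.5-fold share, 82.9%, was near the 82.8% of all named genes. The intervals of the other 6, Slc2a12, Pfkfb2, Hk2, Gys1, Irs2 and Insr, reached past a 1.5-fold increase, and those of Slc2a12 and Pfkfb2 past a 2-fold increase.

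**Figure D1:**
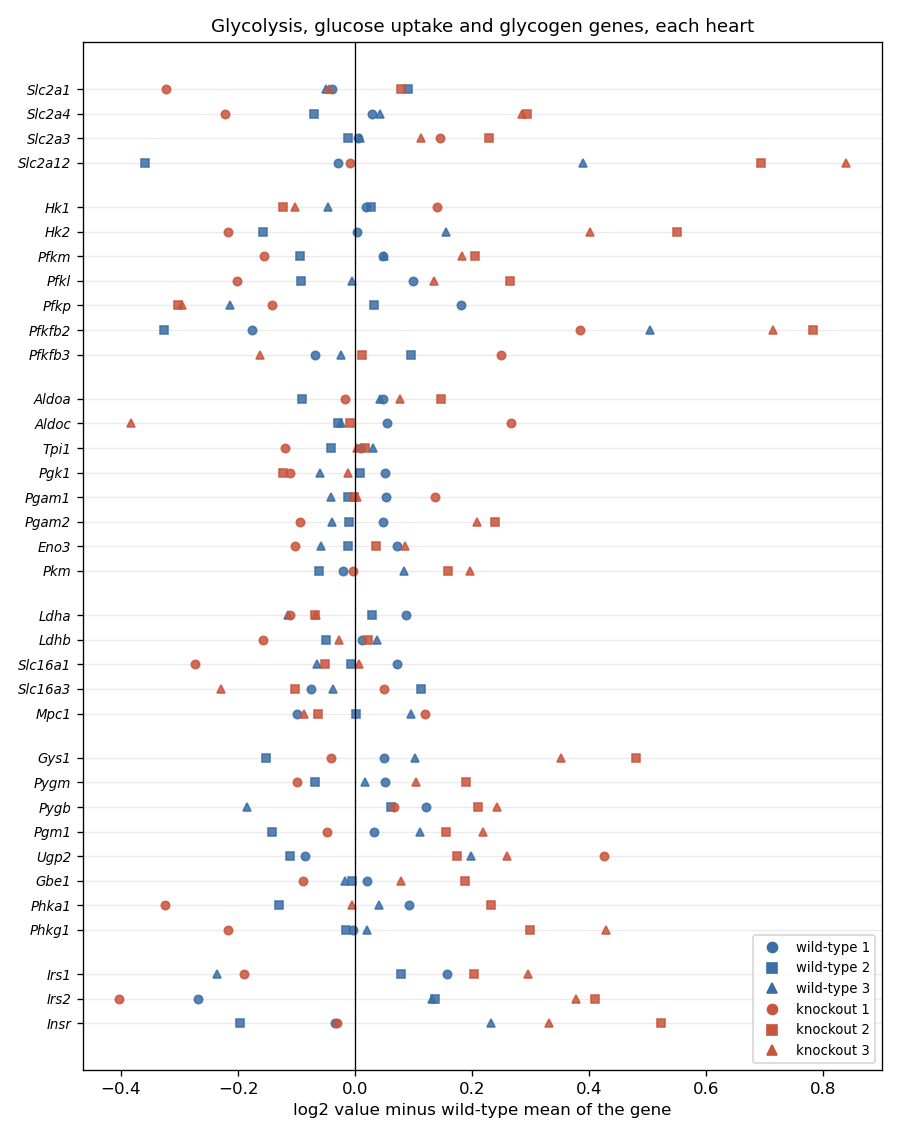
Log2 value of each measured member in each heart minus its wild-type mean (x axis, log2), with members in rows grouped by role; blue is wild-type, red is knockout, and the symbol gives the replicate. Most genes of lower glycolysis lie within 0.2 of 0, while Slc2a12, Pfkfb2 and Irs2 have the widest range over the 6 hearts.

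**Figure D2:**
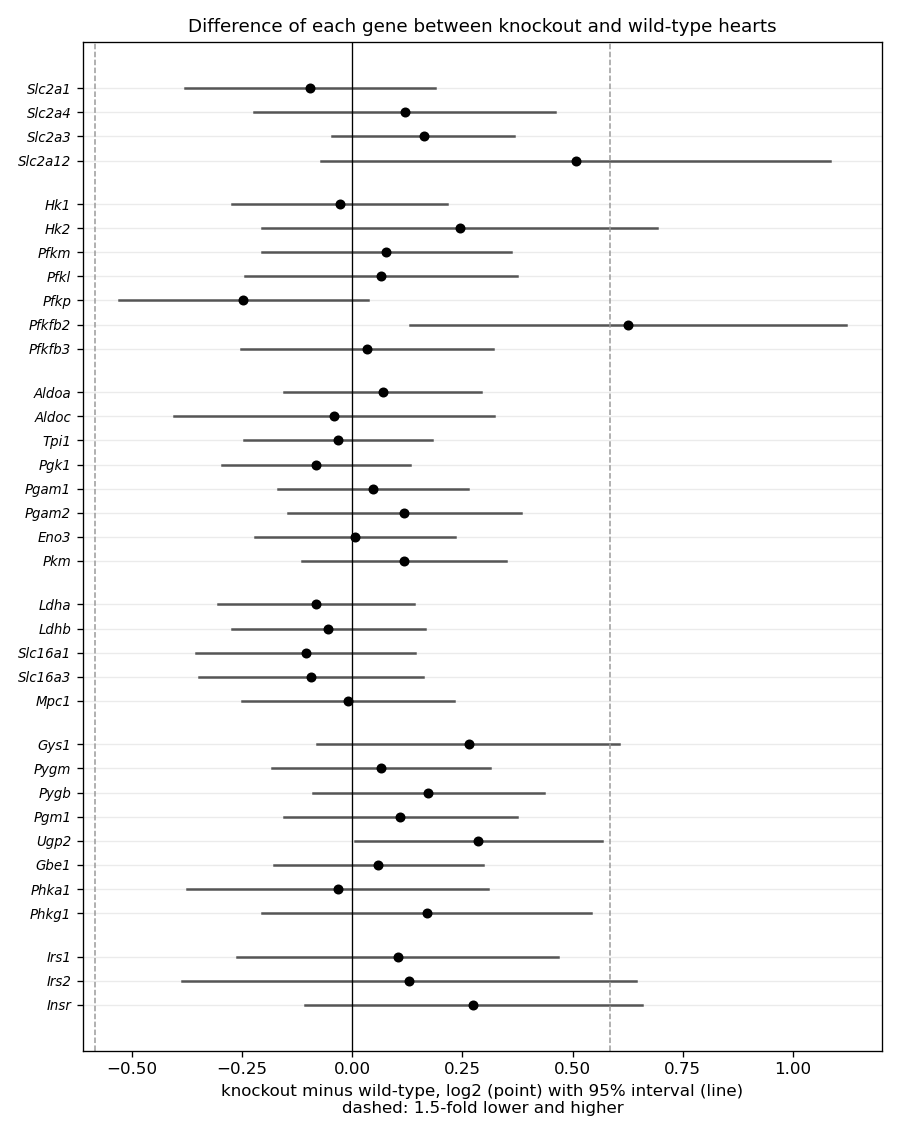
Difference of each member, knockout minus wild-type (point, log2), with its 95% interval from limma (line) and dashed lines at 1.5-fold; n = 3 hearts a group. The intervals of 33 members cross 0, and those of Pfkfb2 and Ugp2 lie above it before adjustment.

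Before the single genes, the arrays themselves call for a description, because knockout replicate 1 was often the lowest heart for these members. Its value was the lowest of the 6 hearts in 15 of the 35 members, 42.9%, against 18.3% of all named probes. Knockout replicate 2 was the highest of the 6 in 14 members, 40.0%, against 15.9% of all named probes. This was not particular to the members. The summed signal of ventricular cardiomyocyte markers, given below, was also lowest in knockout replicate 1 and highest in knockout replicate 2. Some lists of related genes, described below, showed the same, while others did not. Knockout replicate 1 was lowest in 6 of 17 transcription and hypoxia regulators, and replicate 2 highest in 10. In 21 insulin, AMP-activated kinase and trafficking genes the counts were 7 and 8. They were 4 and 4 in 12 pyruvate dehydrogenase genes and 3 and 3 in 15 glycogen regulators. In 14 pentose phosphate, polyol and hexosamine genes they were 1 and 1. They were 3 and 0 in 21 isozymes and transporters of other tissues, and 24 and 26 over all 100 related genes. The median deviation of the members from their mean over the 6 hearts was 0.008, -0.035 and -0.011 in wild-type replicates 1, 2 and 3 and -0.11, 0.12 and 0.072 in knockout replicates 1, 2 and 3 (log2). By these medians the knockout hearts spread more widely than the wild-type hearts, with 1 below and 2 above every wild-type heart.

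Markers of cell types moved across the same hearts. All 10 ventricular cardiomyocyte markers were above the background level, as the tissue label says, and their median deviations were 0.004, -0.089 and 0.031 in wild-type replicates 1, 2 and 3 and -0.051, 0.084 and 0.039 in knockout replicates 1, 2 and 3. The 7 fibroblast markers, all above background, read 0.18, 0.25 and -0.22 in wild-type replicates 1, 2 and 3 and 0.23, -0.21 and -0.16 in knockout replicates 1, 2 and 3. The 6 macrophage markers, all above background, read -0.31, -0.023 and 0.16 in wild-type replicates 1, 2 and 3 and 0.52, -0.30 and -0.043 in knockout replicates 1, 2 and 3, with the highest level in knockout replicate 1, where the members were lowest. The summed signal of each list is the log2 of the sum of linear values. For cardiomyocyte markers it read 16.782, 16.746 and 16.808 in wild-type and 16.734, 16.885 and 16.803 in knockout hearts, lowest in knockout replicate 1 and highest in knockout replicate 2. For fibroblast markers it ran from 13.936 to 14.229 and from 13.807 to 14.375, and for macrophage markers from 11.636 to 12.128 and from 11.611 to 12.477. Of the 10 skeletal muscle markers 8 lay above background, and of its 3 fast myosins Myh2 did, at 6.63 to 6.90 over the 6 hearts, while Myh1, at 5.69 to 6.12, and Myh4, at 5.73 to 6.14, did not. The 7 endothelial markers summed to 13.940, 13.918 and 13.869 in wild-type and 13.949, 13.902 and 13.875 in knockout hearts. The 4 measured lymphocyte markers summed to 8.897, 9.172 and 9.241 against 9.258, 9.049 and 9.111. By summed signal wild-type replicate 2 was the wild-type heart nearest the knockout mean in the endothelial, lymphocyte and macrophage lists. In the skeletal muscle and fibroblast lists it was wild-type replicate 1. In the ventricular cardiomyocyte list, and in the smooth muscle, atrial, erythroid and adipocyte lists described next, it was wild-type replicate 3. The 4 smooth muscle markers, all above background, summed to 13.064, 12.862 and 11.373 in wild-type and 11.421, 11.064 and 11.502 in knockout hearts. That sum rests chiefly on Acta2, at 12.96, 12.76 and 11.07 against 11.07, 10.66 and 11.20. Myh11 went the other way, at 7.67, 7.42 and 7.63 against 7.79, 7.89 and 8.01, while Tagln differed by -0.18 and Cnn1 by -0.022. In Myh11 and Cnn1 wild-type replicate 3 was not the wild-type heart nearest the knockout mean. The 4 atrial markers, 3 of them above background, summed to 12.069, 12.063 and 12.777 in wild-type and 13.353, 12.560 and 12.863 in knockout hearts. That sum rests chiefly on Nppa, at 11.63, 11.65 and 12.47 against 13.12, 12.17 and 12.59. The 2 measured erythroid markers of 5 listed, Alas2 and Slc4a1, both above background, read -0.65, -0.37 and -0.042 in wild-type replicates 1, 2 and 3 and 0.49, 0.28 and 0.30 in knockout replicates 1, 2 and 3, with summed signals of 9.479 to 10.257 in wild-type and 10.557 to 10.838 in knockout hearts. The 5 measured adipocyte markers of 6 listed, 3 of them above background, read 0.50, 0.25 and -0.27 in wild-type replicates 1, 2 and 3 and -0.08, -0.26 and -0.15 in knockout replicates 1, 2 and 3, with summed signals of 8.950 to 9.819 and 8.850 to 9.007. In bulk tissue, fewer cells of a type and less RNA per cell cannot be told apart, and the part of these markers in the results was not tested.

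**Figure D3:**
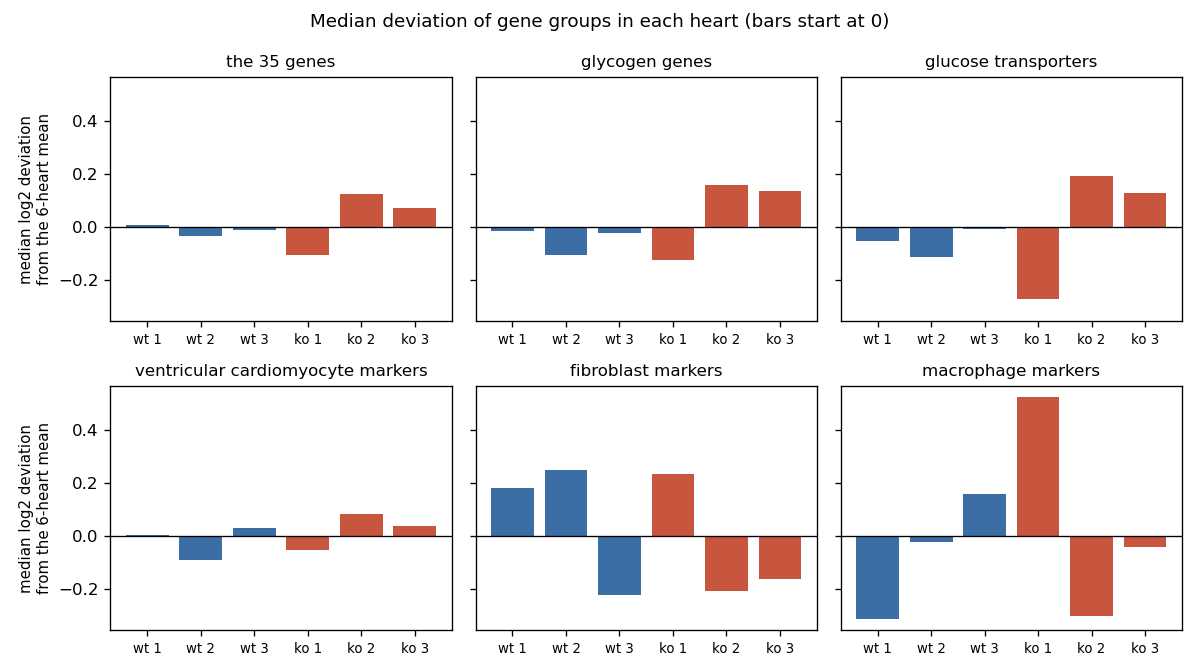
Median log2 deviation from the mean over the 6 hearts (y axis) for the measured members, 2 of their groups and 3 marker lists, by heart; blue is wild-type, red is knockout. Knockout replicate 1 is lowest for the members, at -0.11, and highest for macrophage markers, at 0.52.

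Among the glucose transporters, 3 of 4 measured members were higher and none passed. Slc2a4, the insulin-responsive transporter of heart and muscle, read 11.72, 11.62 and 11.73 in wild-type replicates 1, 2 and 3 and 11.47, 11.99 and 11.98 in knockout replicates 1, 2 and 3, all on the log2 scale. The knockout hearts lay on both sides of the wild-type ones, with replicate 1 lowest of all and replicates 2 and 3 highest. Its difference was 0.12 with a standard error of 0.15 (adjusted p = 0.81 by limma), or 0.29 without knockout replicate 1.
Slc2a1, the transporter of basal uptake, read 9.36, 9.49 and 9.35 in wild-type and 9.07, 9.47 and 9.35 in knockout hearts. Only the low value of knockout replicate 1 lay outside the wild-type range, and the difference of -0.097 (standard error 0.12, limma adjusted p = 0.814) turned to 0.017 without it. Slc2a12, a second insulin-responsive transporter, showed the widest spread of the group. Its values were 8.76, 8.43 and 9.17 in wild-type and 8.78, 9.48 and 9.62 in knockout hearts, and wild-type replicate 3 lay above knockout replicate 1. The difference was 0.51 with a standard error of 0.25 (95% interval -0.071 to 1.08, limma adjusted p = 0.543). Leaving out knockout replicate 1 gave 0.77, leaving out wild-type replicate 3 gave 0.70, and neither passed the adjusted threshold. Slc2a3, best known as the transporter of neurons, was the dimmest member of the group at 6.79, 6.77 and 6.79 in wild-type and 6.93, 7.01 and 6.89 in knockout hearts. Every knockout value lay above every wild-type value, but by a difference of only 0.16 (standard error 0.09, adjusted p = 0.576 by limma).

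At the first committed steps the gene with the smallest p of all members was Pfkfb2. It encodes the heart form of the bifunctional enzyme that makes and breaks down an activator of phosphofructokinase. Its values were 9.87, 9.72 and 10.55 in wild-type replicates 1, 2 and 3 and 10.43, 10.82 and 10.76 in knockout replicates 1, 2 and 3. Wild-type replicate 3 lay with the knockout hearts, above knockout replicate 1, while the other 2 wild-type hearts lay below all of them. The difference was 0.63 with a standard error of 0.21, a fold of 1.54 with a 95% interval of 1.10 to 2.17 (adjusted p = 0.455 by limma). Without wild-type replicate 3 it was 0.88 and passed (adjusted p = 0.0456), the 1 member to do so, 4 of 35 members then having an unadjusted p under 0.05, 11.4% of them. That setting raised calls over the whole array as well, to 1.34% of all named probes, and to 15.8% at an unadjusted p under 0.05. Leaving out any other array gave Pfkfb2 no call. By summed signal wild-type replicate 3 was also the wild-type heart nearest the knockout mean in the ventricular cardiomyocyte, erythroid, adipocyte, smooth muscle and atrial lists given above. It was not in the fibroblast, macrophage, endothelial, lymphocyte and skeletal muscle lists. The smooth muscle sum rests chiefly on Acta2 and the atrial sum on Nppa. The part of these markers in this difference was not tested. The E-box printed above lies in 1 of the 3 listed promoter windows of this gene. Pfkfb3, an inducible relative with CACGTG in some but not all of its windows, differed by 0.033 (standard error 0.12, limma adjusted p = 0.951). Any part of the E-box in these values was not tested.

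Hexokinase genes did not pass. Hk2, the insulin-regulated hexokinase of muscle, read 10.26, 10.10 and 10.41 in wild-type and 10.04, 10.81 and 10.66 in knockout hearts. Knockout replicates 2 and 3 were the highest and knockout replicate 1 the lowest of the 6. Its difference of 0.24 (standard error 0.20, 95% interval -0.20 to 0.69, limma adjusted p = 0.699) became 0.47 without knockout replicate 1. Hk1, the constitutive hexokinase, gave -0.029 on its brightest probe (standard error 0.11, limma adjusted p = 0.949), which quantile normalization turned to 0.034, and the identity of that probe is in doubt.

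The 3 phosphofructokinase subunits are Pfkm of muscle, Pfkl of liver and Pfkp of platelets. Pfkm read 12.42, 12.28 and 12.43 in wild-type and 12.22, 12.58 and 12.56 in knockout hearts, a difference of 0.077 (standard error 0.12, adjusted p = 0.859 by limma). Again knockout replicate 1 was lowest and replicates 2 and 3 highest. Pfkl differed by 0.065 (standard error 0.14, limma adjusted p = 0.898). Pfkp was the member with the largest difference downward, at 9.96, 9.81 and 9.57 in wild-type and 9.64, 9.48 and 9.48 in knockout hearts. Wild-type replicate 3 lay inside the knockout range, and the difference was -0.25 with a standard error of 0.12 (95% interval -0.53 to 0.036, limma adjusted p = 0.544), or -0.35 without that heart. Knockout replicate 1 was here the highest of the knockout hearts.

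**Figure D4:**
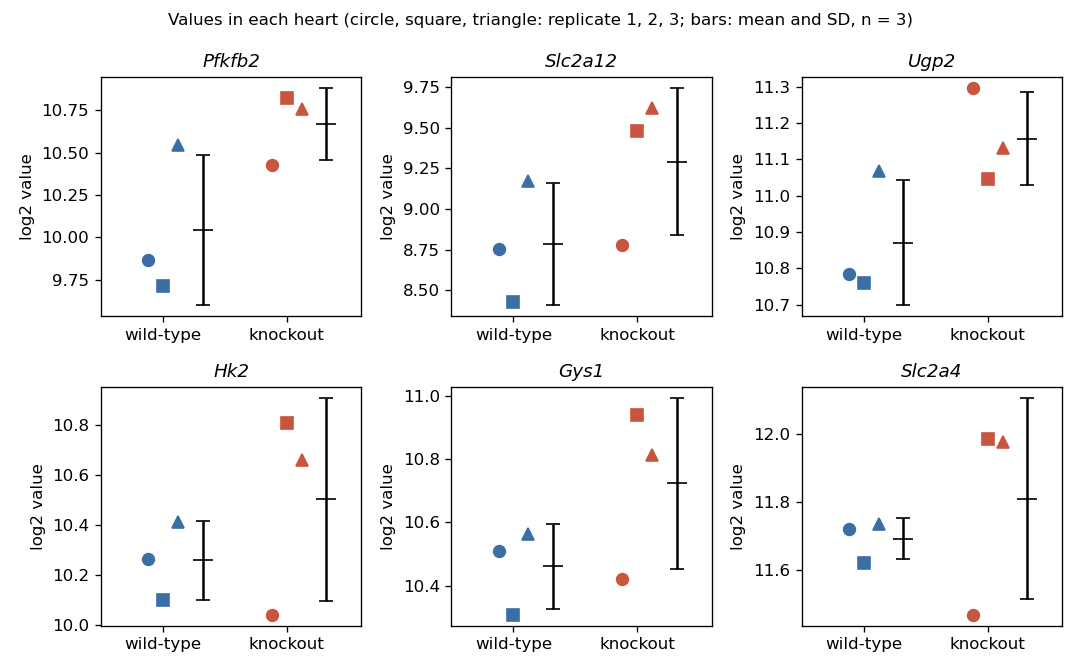
Log2 values in each heart (y axis, a range of its own per gene) for Pfkfb2, Slc2a12, Ugp2, Hk2, Gys1 and Slc2a4, with the group mean and SD (n = 3) as bars. In Hk2 and Slc2a4 knockout replicate 1 is the lowest of the 6 hearts and the other knockout hearts are the highest, while in Pfkfb2 wild-type replicate 3 lies with the knockout hearts.

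Genes of lower glycolysis, which convert fructose bisphosphate to pyruvate, differed little and none passed. The 8 measured genes ran from -0.082 to 0.12 on the log2 scale with a median of 0.026, 5 higher and 3 lower, of which Tpi1 turned to 0.026 after quantile normalization. Each of the 8 had a 95% interval inside 1.5-fold. The aldolase Aldoa and the muscle enolase Eno3 differed by 0.069 (standard error 0.098) and 0.006 (standard error 0.099). Tpi1, the triose phosphate isomerase, differed by -0.033 (standard error 0.093), and Pgk1, the phosphoglycerate kinase, by -0.082 (standard error 0.093). Aldoc, the aldolase of brain, had the widest interval of the group, -0.41 to 0.32, around a difference of -0.042. Pgam1, the phosphoglycerate mutase of most tissues, differed by 0.046 (standard error 0.094).
Pgam2, its muscle form, read 11.90, 11.84 and 11.81 in wild-type and 11.76, 12.09 and 12.06 in knockout hearts. Its difference of 0.12 (standard error 0.12, limma adjusted p = 0.754) was 0.22 without knockout replicate 1, again the lowest heart. Pkm, the pyruvate kinase outside liver, read 11.87, 11.83 and 11.98 in wild-type and 11.89, 12.05 and 12.09 in knockout hearts, with a difference of 0.12 (standard error 0.10, limma adjusted p = 0.724). Its groups overlapped through wild-type replicate 3 and knockout replicate 1.

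All 5 measured genes of lactate and pyruvate handling were lower in knockout hearts, by 0.11 at most, and none passed. Ldha, the lactate dehydrogenase subunit that favours lactate formation, read 13.02, 12.96 and 12.82 in wild-type and 12.82, 12.86 and 12.86 in knockout hearts. The knockout hearts lay close together, between wild-type replicate 3 and the other wild-type hearts, with a difference of -0.083 (standard error 0.097, 95% interval -0.30 to 0.14, limma adjusted p = 0.795). Ldhb, the heart subunit, read 12.64, 12.57 and 12.66 in wild-type and 12.47, 12.65 and 12.60 in knockout hearts, a difference of -0.054 (standard error 0.096, limma adjusted p = 0.876). The monocarboxylate transporters that carry lactate, Slc16a1 and Slc16a3, differed by -0.11 (standard error 0.11) and -0.094 (standard error 0.11). Mpc1, a subunit of the mitochondrial pyruvate carrier, differed by -0.01 (standard error 0.10). The signs of Mpc1 and Ldhb depended on normalization, at 0.044 and 0.004 after quantile normalization.

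In glycogen metabolism 7 of 8 members were higher, with a median difference of 0.14, and none passed. Ugp2, which makes the UDP-glucose that glycogen is built from, had the second smallest p of all members. It read 10.79, 10.76 and 11.07 in wild-type and 11.30, 11.04 and 11.13 in knockout hearts, and wild-type replicate 3 lay just above knockout replicate 2. Its difference was 0.29 with a standard error of 0.12, a fold of 1.22 (95% interval of the difference 0.006 to 0.57, limma, adjusted p = 0.5). Here knockout replicate 1 was the highest heart, whereas it was the lowest of the knockout hearts in 25 of the 35 members, and the difference was 0.22 without it.
Gys1, the glycogen synthase of muscle, read 10.51, 10.31 and 10.56 in wild-type and 10.42, 10.94 and 10.81 in knockout hearts. Knockout replicates 2 and 3 were highest and replicate 1 lay inside the wild-type range, with a difference of 0.26 (standard error 0.15, 95% interval -0.079 to 0.61, limma adjusted p = 0.581), or 0.42 without replicate 1. Pygm, the muscle phosphorylase that releases glucose from glycogen, read 12.79, 12.67 and 12.75 in wild-type and 12.64, 12.93 and 12.84 in knockout hearts, a difference of 0.065 (standard error 0.11, limma adjusted p = 0.863). Pygb, the brain phosphorylase, which heart also expresses, read 12.47, 12.41 and 12.17 in wild-type and 12.42, 12.56 and 12.60 in knockout hearts. The lowest of these was wild-type replicate 3, and the difference was 0.17 (standard error 0.12, limma adjusted p = 0.636). Phkg1, the catalytic subunit of muscle phosphorylase kinase, read 8.05, 8.04 and 8.07 in wild-type and 7.83, 8.35 and 8.48 in knockout hearts. The wild-type hearts lay close together while the knockout hearts stood on both sides of them, with a difference of 0.17 (standard error 0.16, limma adjusted p = 0.749), or 0.36 without knockout replicate 1. Of the other 3 members, the phosphoglucomutase Pgm1 differed by 0.11 (standard error 0.12), the branching enzyme Gbe1 by 0.059 (standard error 0.10) and the phosphorylase kinase subunit Phka1 by -0.033 (standard error 0.15).

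The insulin receptor and its docking proteins were all higher and none passed. Insr, the receptor, read 10.40, 10.24 and 10.67 in wild-type and 10.40, 10.96 and 10.77 in knockout hearts. Knockout replicates 2 and 3 were highest, followed by wild-type replicate 3, and the difference was 0.28 (standard error 0.17, 95% interval -0.11 to 0.66, limma adjusted p = 0.608), or 0.43 without knockout replicate 1. A second Insr probe differed by 0.34 with the same order of the knockout hearts. Irs1, a docking protein for the receptor, read 9.09, 9.01 and 8.70 in wild-type and 8.75, 9.14 and 9.23 in knockout hearts, a difference of 0.10 (standard error 0.16, limma adjusted p = 0.852). The 2 Irs1 probes disagreed. The dimmer probe read 6.02, 6.03 and 5.94 in wild-type and 5.31, 5.69 and 5.46 in knockout hearts, with no overlap and a difference of -0.50 (adjusted p = 0.368 by limma), but all 6 of its values lay below the background level. Irs2, a related docking protein, differed by 0.13 with a standard error of 0.23, or 0.40 without knockout replicate 1.

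Without knockout replicate 1, 8 members had an unadjusted p under 0.05, all of them higher: Slc2a4, Slc2a12, Hk2, Pfkfb2, Gys1, Phkg1, Irs2 and Insr. That is 22.9% of the members against 11.2% of all named probes in that setting. Knockout replicate 1 was the lowest knockout heart in 25 of the 35 members, so leaving it out raises their differences by construction. The members were also measured in the same hearts and are not independent of each other. The larger share is therefore a description and not a test. By the adjusted threshold 0 members passed, and 0.0275% of all named probes did. The median difference of the members was then 0.15, with 25 higher and 10 lower, beside -0.012 over all named genes. Each heart was left out in turn, and of the 6 this one moved the member median most.

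Several members rest on probes whose identity is uncertain. Probe numbers run along the genome, and for the chosen probes of all but 4 members 17 to 20 of the 20 nearest named probes lay on the chromosome of the gene, as for Pkm, with 20 of 20 on chromosome 9. The brightest Hk1 probe had 0 of 20 neighbours on chromosome 10, where Hk1 lies, and 19 on chromosome 14. All 16 probes that named Hk1 together with other genes also named Rpl17, a ribosomal protein gene. The brightest Ldhb probe had 1 of 20 neighbours on chromosome 6, the brightest Pgam1 probe 0 of 20 on chromosome 19, and the single Mpc1 probe 0 of 20 on chromosome 17. Which locus these 4 probes read was not tested. The other Hk1 probe, with 20 of 20 neighbours on chromosome 10, read 10.65, 10.43 and 10.34 in wild-type and 10.22, 10.51 and 10.47 in knockout hearts. Its difference was -0.079 (standard error 0.12, limma adjusted p = 0.857), and knockout replicate 1 was its lowest heart, where it had been the highest on the brightest probe. The Ldhb probe with 19 of 20 neighbours on chromosome 6 differed by -0.094 (standard error 0.10) and the Pgam1 probe with 17 of 20 on chromosome 19 by 0.066 (standard error 0.088). Neither passed, although the groups of that Pgam1 probe, at 9.79, 9.74 and 9.77 in wild-type and 9.87, 9.79 and 9.83 in knockout hearts, did not overlap. Another Pgam1 probe, among neighbours of chromosome 7, held the same 6 values. With these probes in place of the brightest the median difference of the members was 0.066, or 0.067 over 34 members with Mpc1 left out as well.

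**Figure D5:**
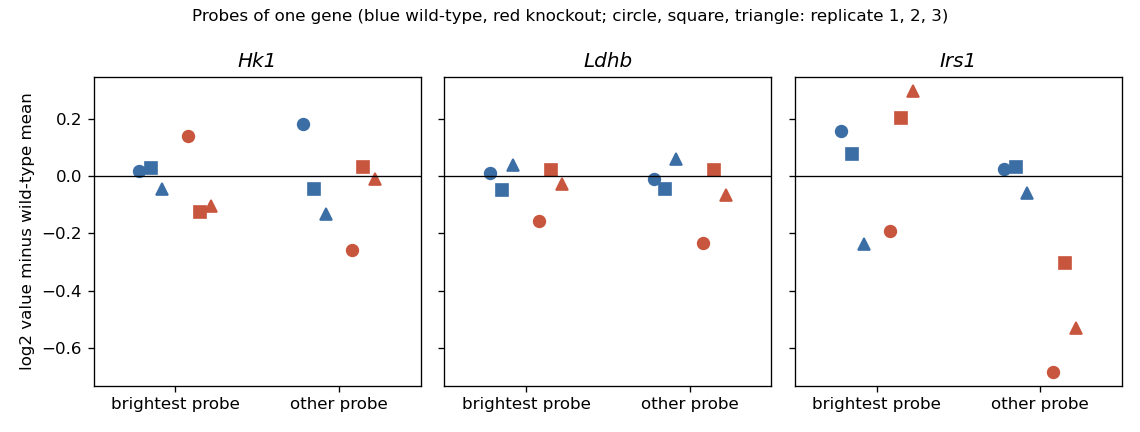
Log2 value minus the wild-type mean (y axis) in each heart for the brightest and the other probe of Hk1, Ldhb and Irs1. Knockout replicate 1 is the highest heart on the brightest Hk1 probe and the lowest on the other, and the 3 knockout hearts lie below the wild-type hearts only on the dim Irs1 probe.

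Isozymes were compared by the log2 difference of their probes within each heart, in 11 pairs with an exact two-sided permutation test over the 6 hearts, whose smallest possible p is 0.1. None could pass by design. The pair with the smallest p was Slc2a1 over Slc2a4, the basal over the insulin-responsive transporter. Relative to the wild-type mean it read -0.07, 0.16 and -0.09 in wild-type and -0.10, -0.22 and -0.33 in knockout hearts. All knockout hearts were below all wild-type hearts, though narrowly, and the difference was -0.21 (exact permutation p = 0.1, adjusted p = 0.733 over the 11 pairs). Knockout replicate 1 was the knockout heart nearest the wild-type ones. Pfkfb3 over Pfkfb2 differed by -0.59 and Pfkp over Pfkm by -0.32, both with an exact permutation p of 0.2 and overlapping hearts. Ldha over Ldhb, the balance of the 2 lactate dehydrogenase subunits, differed by -0.028 with a standard deviation of 0.13 among wild-type and 0.07 among knockout hearts. Aldoc over Aldoa had a standard deviation of 0.38 among knockout hearts against 0.06 among wild-type hearts, with knockout replicate 1 highest. Pgam1 over Pgam2 had 0.26 against 0.004, or 0.22 against 0.04 with the Pgam1 probe whose neighbours lie on chromosome 19, and knockout replicate 1 was highest with either probe. Hk1 over Hk2 depended on the Hk1 probe. With the brightest probe the standard deviation was 0.55 among knockout and 0.19 among wild-type hearts and knockout replicate 1 was highest, whereas with the probe among chromosome 10 neighbours it was 0.25 in both groups and wild-type replicates 1 and 2 were highest. With the Ldhb probe among chromosome 6 neighbours the Ldha over Ldhb difference turned to 0.011.

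The rest of the pathway was read from lists of 108 related genes, of which 100 were measured. None passed the adjusted test, and 11 had an unadjusted p under 0.05, 6 higher and 5 lower, or 11% against 9.9% of all named probes. Of 12 measured genes of pyruvate dehydrogenase and its regulators 1 was higher and 1 lower by the unadjusted p. Pdk4, a kinase that switches the complex off, read 10.06, 10.15 and 11.29 in wild-type and 12.22, 11.77 and 11.87 in knockout hearts, a difference of 1.46 (standard error 0.30, limma adjusted p = 0.297). As in Pfkfb2, wild-type replicate 3 was the wild-type heart nearest the knockout ones, though here it stayed below them. Pdk3, a related kinase, differed by -0.38 (standard error 0.15).
Of 14 measured genes of the pentose phosphate, polyol and hexosamine pathways 1 was higher and 0 lower, H6pd, a glucose phosphate dehydrogenase of the endoplasmic reticulum, with 0.37 (adjusted p = 0.391 by limma). Next in that list was Gnpnat1, with -0.28. Among 15 measured glycogen regulators 1 was higher and 1 lower. Stbd1, a glycogen-binding protein, read 5.67, 5.45 and 6.02 in wild-type and 6.22, 6.27 and 6.57 in knockout hearts, a difference of 0.64 (adjusted p = 0.368 by limma). Only its value in knockout replicate 3 lay above the background level of 6.35. Phkg2, the liver and testis form of the phosphorylase kinase subunit, differed by -0.25.
In the list of insulin, AMP-activated kinase and transporter trafficking genes 1 of 21 was higher and 0 lower. This was Prkab2, a regulatory subunit of AMP-activated kinase, at 8.91, 8.96 and 9.76 in wild-type and 9.89, 9.77 and 9.85 in knockout hearts, where wild-type replicate 3 lay just below the lowest knockout heart and the difference was 0.62 (adjusted p = 0.454 by limma). Akt2, the kinase through which insulin moves transporters to the surface, differed by 0.24 (adjusted p = 0.509 by limma). Among 17 transcription and hypoxia regulators 1 was higher and 0 lower, Txnip, a glucose-responsive inhibitor of glucose uptake, with 0.41 (adjusted p = 0.379 by limma). Egln3, a hypoxia-induced prolyl hydroxylase, differed by -0.35, with 11.68, 11.56 and 10.95 in wild-type and 10.87, 11.17 and 11.10 in knockout hearts. The 21 measured isozymes and transporters of other tissues had 1 higher and 3 lower, 14 of them being above background. Fbp1 and Ldhc, the 2 with the smallest p, differed by 0.29 and -0.31 at means below the background level. Without wild-type replicate 3, 3 related genes passed, namely Pdk4 with 1.85 (adjusted p = 0.00528), Prkab2 with 0.90 (adjusted p = 0.0146) and Pygl, the liver phosphorylase, with -1.31 (adjusted p = 0.00561), and 0 did without any other array. With all 6 hearts Pygl read 8.84, 8.68 and 7.31 in wild-type and 7.54, 7.34 and 7.46 in knockout hearts, so that wild-type replicate 3 was the lowest of all, and the difference was -0.83 (standard error 0.35, limma adjusted p = 0.5).

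The genes most like the 3 members of smallest p over the 6 hearts were found among 14136 genes above the background level, by Pearson correlation. For Pfkfb2 they were Txlnb, Slc6a8 and Myo5b (0.998, 0.997 and 0.997), for Ugp2 Rragc, Sh3bgrl2 and Itm2b (0.996, 0.995 and 0.995), and for Slc2a12 Zyg11b, Cobll1 and Mef2d (0.998, 0.997 and 0.995). With 6 points and this many genes such values are a description only.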

How the data were processed

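Hearts of 3 wild-type and 3 knockout mice were each measured on 1 array. The authors deposited log2 values of 35556 probes. RMA, which corrects background and normalizes arrays to each other, and Partek 6.6 are named per the submitters' processing notes, and the settings were not given in the sources used here. Array medians were 6.92 to 6.97. Probes were named from the platform annotation, 21789 with exactly 1 symbol, 1621 with several and 12146 unnamed here. Entrez IDs of 21698 were found in the RefSeq table of GRCm38.p6, and 0 symbols changed.

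The group difference was fitted in R 4.3.3 with limma 3.58.1 (lmFit and eBayes, two-sided, no pseudocount, no filter), with Benjamini-Hochberg adjustment over all 21789 named probes. The fit was tested on simulated data. The members and lists were chosen with earlier results of these data known. Values in every array are given for 13 listed genes of the pathway, whatever their values, and for the 12 members of smallest p, except Gapdh. Of related genes the 2 of smallest p in each list are named. Pygl was named after its values were seen. The alternatives changed the normalization, the filter on dim probes, the number of probes tested, the choice among a gene's probes and the variance model, weighted the arrays, blocked on replicate number, or dropped each array in turn. The choice of probe by its neighbours was added after seeing the data. Figures were drawn with matplotlib 3.10.9.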

Additional observations from a re-analysis of the deposited data

How the results depend on the processing

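The 35 member differences were recomputed 528 times over 16 alternatives, of which 497 kept direction and side of the threshold, 30 turned sign and 1, Pfkfb2 without wild-type replicate 3 (0.88), passed. Members called were 0 in every fit except that one, a range of 0 to 1 with an array left out, and 2 at an unadjusted p under 0.05. Related genes called were 0 to 3 with an array left out and 11 at the unadjusted p. Probes called over the whole array, 6 as reported, were 1 over all probes of the table, 22 with trend and robust variance, 33 with array weights, 1 to 293 with an array left out and 2157 at the unadjusted p. With the replicate number as a block 11 probes were called and 0 members; the deviations of same-numbered hearts correlated by -0.11, -0.16 and -0.003, so the numbers are not treated as pairs. The member median ran from 0.019 to 0.15 with an array left out, and after quantile normalization 27 of 35 members were higher. Isozyme ratios whose groups did not overlap numbered 1 of 11 as reported, beside 14.8% of all named probes, and 0 after quantile normalization. With an array left out they numbered 1 to 6. Fewer hearts in a group make non-overlap easier to reach, so those counts cannot be set against the others. With the replicate block 3 ratios moved one way in all numbered pairs.

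With probes chosen by their neighbours Ldha over Ldhb was 0.011. With array medians subtracted Mpc1 was 0.012. After quantile normalization Hk1 was 0.034, Tpi1 0.026, Ldhb 0.004, Mpc1 0.044 and Slc16a3 over Slc16a1 -0.016. After cyclic loess Hk1 was 0.005, Mpc1 0.025 and Slc16a3 over Slc16a1 -0.017. With the mean of both probes Irs1 was -0.20, and with array weights Pfkfb3 was -0.042 and Phka1 0.021. With an array left out, ranges across 0 were -0.18 to 0.017 for Slc2a1, -0.11 to 0.019 for Hk1, -0.034 to 0.20 for Pfkl, -0.076 to 0.13 for Pfkfb3, -0.20 to 0.13 for Aldoc, -0.058 to 0.01 for Tpi1, -0.033 to 0.061 for Eno3, -0.074 to 0.039 for Mpc1, -0.005 to 0.13 for Gbe1, -0.17 to 0.11 for Phka1, -0.014 to 0.25 for Irs1 and -0.012 to 0.40 for Irs2. Among ratios they were -0.047 to 0.014 for Pfkl over Pfkm, -0.31 to 0.064 for Aldoc over Aldoa, -0.22 to 0.013 for Pgam1 over Pgam2, -0.10 to 0.01 for Ldha over Ldhb, -0.14 to 0.14 for Slc16a3 over Slc16a1 and -0.21 to 0.19 for Irs1 over Irs2. The causes were not tested, and signal near background limits Slc2a3, Aldoc and Stbd1.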
